A study of Mus musculus with 6 samples.

Results

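The cluster of miR-132 and miR-212 is a pair of microRNA (miRNA) genes that give 4 mature miRNAs, mmu-miR-132-3p, mmu-miR-132-5p, mmu-miR-212-3p and mmu-miR-212-5p, written below without the mmu prefix for mouse. They were taken by name from the deposited tables, as every row whose name begins with mmu-miR-132- or mmu-miR-212-, which gave 4 of the 1836 miRNAs and 2334 small RNAs listed. All 4 passed the filter on low counts that left 997 small RNAs for testing, 541 of them miRNAs. The libraries came from the joined layers of sclera, choroid and retinal pigment epithelium (RPE) of male mice aged 7 to 8 weeks. In the CNV group, the eyes had laser-induced choroidal neovascularization, the growth of new vessels from the choroid. Each of these eyes received 25 laser burns around the optic disc (532 nm, 100 mW, 0.1 s, 50 µm), and tissue was taken 7 days later. The control group came from mice of the same age that had no laser treatment. No label gives the strain. Each group had 3 libraries, and every library was a pool of tissue from 4 eyes. No label says that different pools held different mice, so p-values below reflect the spread among pools, which may be partly technical.

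A miRNA gene is transcribed as part of a longer RNA that holds a hairpin, from which a short duplex is cut. Its 5p and 3p strands, called arms, can each be loaded into an Argonaute protein, where bases 2 to 8 of the miRNA, the seed, pair with target mRNAs. Transcription of the locus is induced by the transcription factor CREB, first described in neurons, where miR-132-3p promotes the growth of dendrites. In endothelial cells miR-132-3p is induced by angiogenic growth factors and lowers Rasa1, a protein that holds Ras signalling in check, and through this link it has been tied to the growth of new vessels. The miR-212 arms are less studied than miR-132-3p.

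Both hairpins lie on the plus strand of mouse chromosome 11. In RefSeq, build GRCm38.p6, Mir212 is at chr11:75173388-75173478 and Mir132 at chr11:75173682-75173747, with 203 bases between them. In GENCODE M21, which uses the same build, both fall in the intron between exon 1 (75172560 to 75172597) and exon 2 (75173978 to 75174161) of the noncoding gene 1700016P03Rik, on the same strand. No label names the build behind the deposited counts, and no coordinate was needed to read them. The hairpins are shown because they place all 4 members, with the mature arms in capitals, 5p first and 3p after it.
Mir212 hairpin: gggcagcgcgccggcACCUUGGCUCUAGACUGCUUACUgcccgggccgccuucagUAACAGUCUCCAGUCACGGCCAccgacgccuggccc
Mir132 hairpin: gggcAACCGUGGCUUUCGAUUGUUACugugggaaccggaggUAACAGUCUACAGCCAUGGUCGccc

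The mature sequences, from the same RefSeq table, are shown with the seed in capitals, because the seed groups the members by the targets they can share.
miR-132-3p: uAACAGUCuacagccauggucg
miR-212-3p: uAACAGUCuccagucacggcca
miR-132-5p: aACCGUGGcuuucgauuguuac
miR-212-5p: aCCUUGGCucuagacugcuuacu

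The 4 members carry 3 distinct seeds, since the 3p arms share AACAGUC and the 5p arms have ACCGUGG in miR-132-5p and CCUUGGC in miR-212-5p. Of the 1836 listed miRNAs, 1560 matched a RefSeq sequence by name. Among these no other miRNA had any of the 3 seeds. The 3p arms are both 22 bases long, with their first 9 bases identical and 17 identical in all. Counted from 1 at the 5′ end, with the base of miR-132-3p first, they differ by A10C, C14U, U17C, U20C and G22A. Whether reads could be assigned to both names depends on the mismatches allowed by the authors' alignment, which no label gives. No other listed small RNA had the same counts as a member in all 6 libraries.

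The libraries held 5321436 to 5820315 counts in CNV and 5057142 to 12839386 in control, where replicate 2 was the deepest. The members together took 1390, 1280 and 1598 counts in CNV replicates 1 to 3 and 1387, 3116 and 1303 in control replicates 1 to 3. That was 0.0262% to 0.0302% of the miRNA counts in CNV and 0.0255% to 0.0284% in control. Levels below are in CPM (counts per 1000000 of the library total), after correction of that total by the trimmed mean of M-values (TMM). A small RNA read spans the whole miRNA, so these levels needed no scaling for length. How well each sequence was captured in library construction was not measured, which limits comparisons between different miRNAs.

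The cluster was moderately expressed, and its 4 members kept the order miR-132-3p, miR-132-5p, miR-212-5p, miR-212-3p in every library. In control replicate 1 the miR-212 arms were close, at 128 counts of miR-212-5p and 123 of miR-212-3p. Their order in that library lay within counting error. Among the 1836 miRNAs ranked by count, miR-132-3p was between place 172 and 176 in CNV and between 172 and 184 in control. The range for miR-132-5p was 208 to 216 in CNV and 211 to 224 in control. For miR-212-5p it was 267 to 289 in CNV and 303 to 319 in control, and for miR-212-3p 306 to 321 in CNV and 312 to 366 in control. The levels of miR-132-3p and miR-132-5p did not overlap across the 6 libraries. Those of miR-212-5p and miR-212-3p did not overlap in CNV. In control they did, with 21.2 CPM of miR-212-3p in replicate 1 and 20.8 CPM of miR-212-5p in replicate 2.

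The comparison of CNV with control asked whether small RNAs of these layers differ at 7 days after laser. No member passed the quasi-likelihood test of edgeR at an adjusted p of 0.05 (Benjamini-Hochberg, over all 997 small RNAs), where 0.301% of small RNAs and 0.555% of miRNAs passed. DESeq2 and limma-voom called none of the 4 either. At an unadjusted p under 0.05, edgeR gave 1 of the 4 members, miR-212-5p, against 17.8% of all small RNAs. All 4 log2 fold changes were positive, with a median of 0.25, beside 277 positive of 541 tested miRNAs and a median of 0.01. The 2 miR-132 arms became negative under scaling by total counts alone.

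The main product, mmu-miR-132-3p, was at 136, 125 and 139 CPM in CNV replicates 1 to 3, against 134, 116 and 139 CPM in control replicates 1 to 3. The groups overlapped, and the lowest value was that of control replicate 2. The mean was 133 ± 7.22 CPM in CNV and 130 ± 12.3 CPM in control (SD, n = 3 each). The log2 fold change was 0.04 (SE 0.15) with an adjusted p of 0.930 in edgeR. The 95% interval of the fold change ran from 0.806 to 1.31, and larger changes in either direction fell outside it. Under scaling by total counts alone the log2 value was -0.10, and the median of all tested small RNAs then moved to -0.11, against 0.05 under TMM. The value was also negative without CNV replicate 3 (-0.078) and without control replicate 2 (-0.13).

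Its partner from the other side of the hairpin, mmu-miR-132-5p, was at 79.97, 73.2 and 88.0 CPM in CNV replicates 1 to 3, against 61.8, 76.9 and 83.9 CPM in control replicates 1 to 3. These groups overlapped too, with control replicate 1 lowest and CNV replicate 3 highest. The mean was 80.4 ± 7.41 CPM in CNV and 74.2 ± 11.3 CPM in control (SD, n = 3 each). The log2 fold change was 0.12 (SE 0.18) with an adjusted p of 0.792 in edgeR, and the 95% interval of the fold change was 0.818 to 1.44. Under scaling by total counts alone the log2 value was -0.019, and without CNV replicate 3 it was -0.035.

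The arm mmu-miR-212-5p, the more abundant product of its hairpin, was at 32.7, 34.8 and 28.2 CPM in CNV replicates 1 to 3, against 22.1, 20.8 and 25.1 CPM in control replicates 1 to 3. Every CNV pool was above every control pool, also under scaling by total counts alone, where they were at 28.9, 32.9 and 29.0 CPM in CNV and 24.5, 22.6 and 24.3 CPM in control. Among the tested miRNAs, 12.8% showed this separation upward under TMM and 24.0% did not overlap in either direction. These shares were not computed under scaling by total counts alone. The mean of 31.9 ± 3.38 CPM in CNV, against 22.7 ± 2.20 CPM in control (SD, n = 3 each), gave a log2 fold change of 0.50 (SE 0.19). In edgeR the unadjusted p was 0.0286, place 123 among the 997 small RNAs, and the adjusted p was 0.232. The unadjusted 95% interval of the fold change was 1.05 to 1.90. The counts behind it were 168, 175 and 164 in CNV and 128, 290 and 123 in control. In edgeR under scaling by total counts alone the log2 value was 0.35 with an unadjusted p of 0.108. The unadjusted p in edgeR was also above 0.05 without a filter on low counts (0.107) and without CNV replicate 1 (0.0745), CNV replicate 2 (0.127), control replicate 1 (0.0578) or control replicate 2 (0.157, log2 value 0.34).

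The least abundant member, mmu-miR-212-3p, which has the seed of miR-132-3p, was at 21.8, 21.7 and 19.9 CPM in CNV replicates 1 to 3, against 21.2, 10.4 and 17.8 CPM in control replicates 1 to 3. The CNV pools were close together, whereas control replicate 2 was well below the other libraries and control replicate 1 lay within the CNV range. The mean was 21.1 ± 1.04 CPM in CNV and 16.5 ± 5.51 CPM in control (SD, n = 3 each). The log2 fold change was 0.38 (SE 0.28) with an adjusted p of 0.555 in edgeR, and the 95% interval of the fold change, 0.842 to 2.00, was the widest of the 4. The value rested on the control libraries, since it was 0.015 without control replicate 2 and 0.61 without control replicate 1. The low library was also the deepest, with 145 counts of miR-212-3p. The part of depth in this value was not tested.

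**Figure D1:**
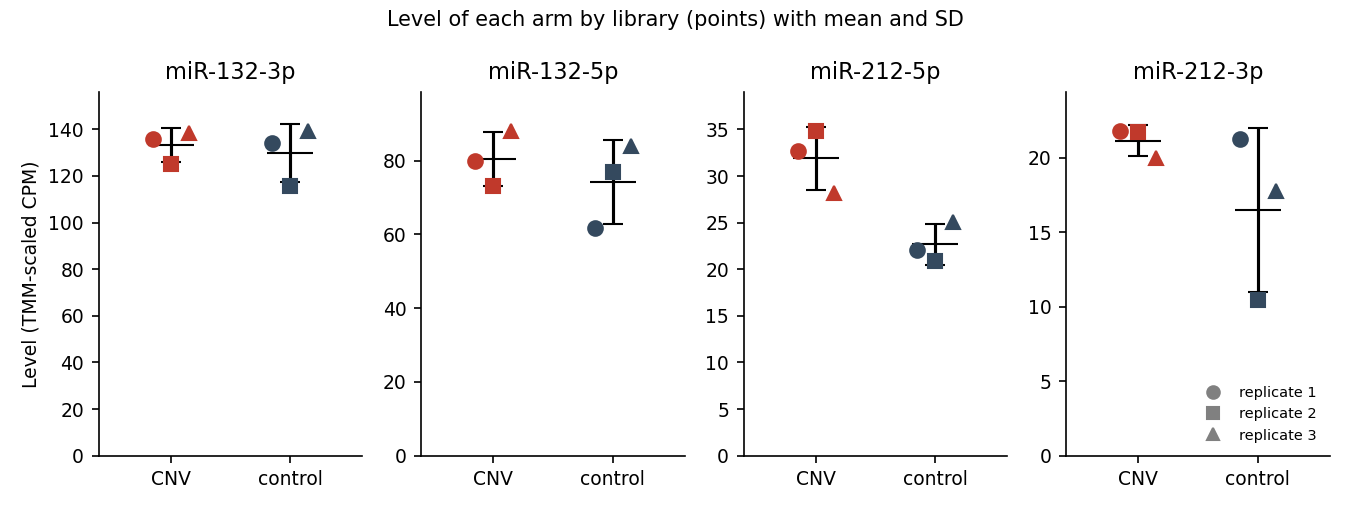
Level of each member in TMM-scaled CPM (vertical axis, from 0) in the 3 CNV and 3 control libraries, where points are libraries, the long bar is the mean and the error bar the SD. For miR-212-5p the CNV libraries, from 28.2 to 34.8 CPM, all lie above the control libraries, from 20.8 to 25.1 CPM, while the groups overlap for the other members.

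**Figure D2:**
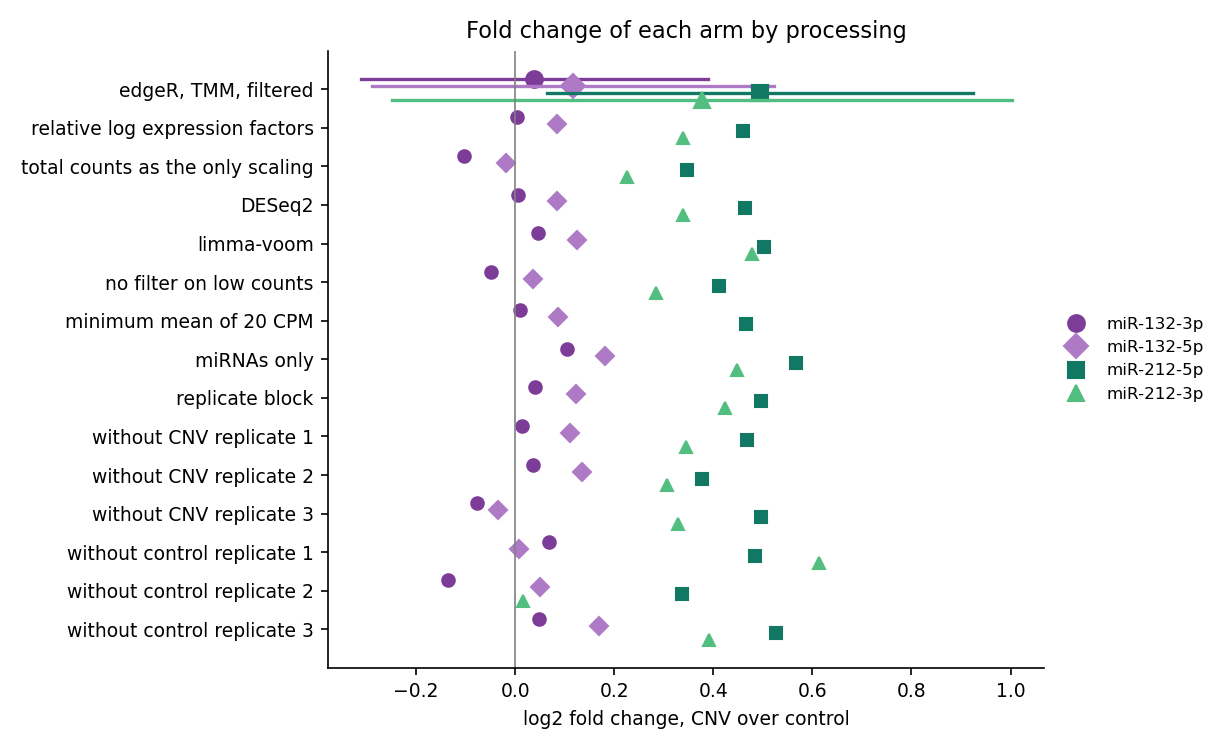
Log2 fold change of each member, CNV over control (horizontal axis), in edgeR with TMM (top, with unadjusted 95% intervals) and under each alternative. The points of miR-212-5p stay between 0.34 and 0.57, those of miR-132-3p lie on both sides of 0 between -0.13 and 0.11, and miR-212-3p moves to 0.015 without control replicate 2.

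Summed over both arms, the miR-212 hairpin gave 54.5, 56.5 and 48.1 CPM in CNV replicates 1 to 3, against 43.3, 31.3 and 42.9 CPM in control replicates 1 to 3. All CNV sums lay above the control sums, a separation upward that 12.8% of tested miRNAs showed singly. Under scaling by total counts alone the lowest CNV sum, 48.11 CPM in replicate 1, was next to the highest control sum, 48.03 CPM in replicate 1. The miR-132 hairpin gave 216, 198 and 227 CPM in CNV and 196, 193 and 223 CPM in control, and these overlapped. The miR-132 arms together were 4.06 ± 0.606 times as abundant as the miR-212 arms in CNV and 5.30 ± 0.823 times in control (SD, n = 3 each). The groups overlapped on this ratio, with 4.71 in CNV replicate 3 and 4.53 in control replicate 1. It was highest in control replicate 2, at 6.16. Of all reads of the cluster, miR-132-3p took 49.9 ± 0.755% in CNV and 53.4 ± 2.37% in control. For miR-212-5p the share was 12.0 ± 1.71% in CNV and 9.33 ± 0.107% in control. These shares did not overlap between the groups for either member. Shares within a library depend on each other, so these are not separate results. In CPM, 24.0% of tested miRNAs did not overlap between the groups. The shares overlapped for miR-132-5p, at 30.1 ± 1.71% in CNV and 30.6 ± 4.35% in control. They also overlapped for miR-212-3p, at 7.94 ± 0.636% in CNV and 6.73 ± 2.11% in control (SD, n = 3 each).

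Whether members of the cluster differed in their response was asked of the log2 ratio of each pair within a library, which does not depend on how libraries are scaled. None of the 6 pairs passed a two-sided exact permutation test adjusted over the 6, and 3 against 3 cannot give a p under 0.1. The ratio of miR-132-3p to miR-212-5p was 4.15, 3.58 and 4.90 in CNV replicates 1 to 3, against 6.06, 5.55 and 5.53 in control replicates 1 to 3. This was the only pair of the 6 whose groups did not overlap, with a log2 difference of -0.45 (exact permutation p = 0.1, the smallest possible, adjusted 0.4). Among the 3p to 5p ratios of 156 miRNA hairpins, 16.7% did not overlap. That share is for arms of 1 hairpin, and none was computed for pairs from different hairpins. The 6 pairs are built from 4 members, so they are not separate results. The ratio of the 3p arms, miR-132-3p to miR-212-3p, was 6.22, 5.74 and 6.92 in CNV and 6.30, 11.1 and 7.80 in control, with a log2 difference of -0.38 (exact permutation p = 0.2, adjusted 0.4). That of the 5p arms, miR-132-5p to miR-212-5p, was 2.44, 2.10 and 3.12 in CNV and 2.79, 3.69 and 3.33 in control, with a log2 difference of -0.37 (exact permutation p = 0.2, adjusted 0.4). For miR-132-5p to miR-212-3p the log2 difference was -0.30 (exact permutation p = 0.6, adjusted 0.84), and without control replicate 2 it was 0.034. For the pairs of arms from 1 hairpin the log2 differences were -0.08 in miR-132 (exact permutation p = 0.9, adjusted 0.9) and -0.07 in miR-212 (exact permutation p = 0.7, adjusted 0.84).

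**Figure D3:**
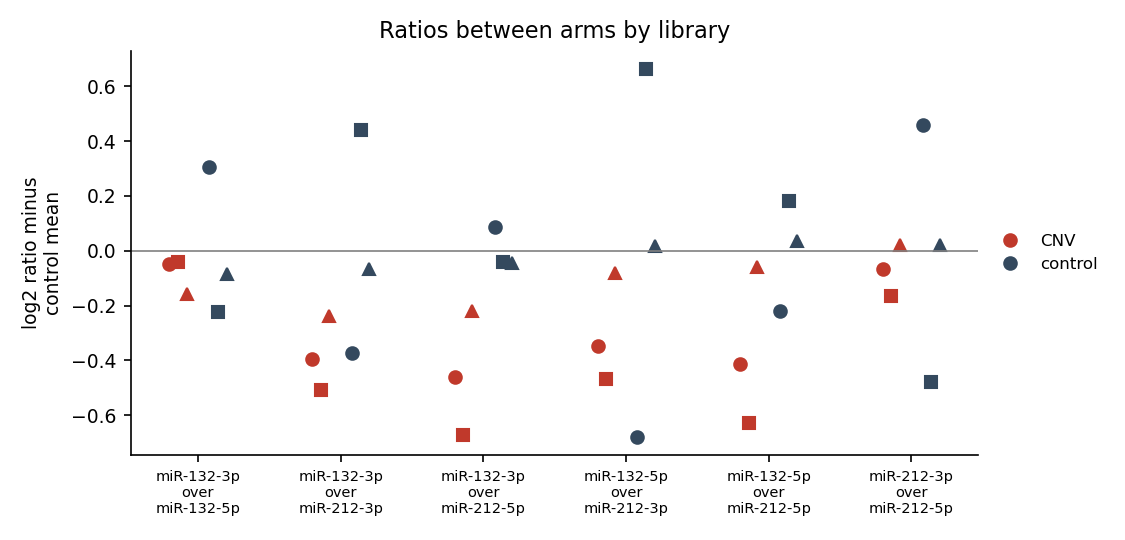
Log2 ratio of each pair of members by library, minus the control mean of that pair (vertical axis), with circles, squares and triangles for replicates 1, 2 and 3. The CNV and control points separate for miR-132-3p over miR-212-5p, at a log2 difference of -0.45, and overlap for the other pairs. Of the 3p to 5p ratios of 156 miRNA hairpins, 16.7% did not overlap either.

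The balance between the arms of a hairpin did not differ detectably between the groups. The miR-132 hairpin favoured its 3p arm, which took 63.0%, 63.1% and 61.2% of its reads in CNV replicates 1 to 3 and 68.5%, 60.1% and 62.4% in control replicates 1 to 3. The miR-212 hairpin favoured its 5p arm, and its 3p arm took 40.0%, 38.4% and 41.4% in CNV and 49.0%, 33.3% and 41.4% in control. Within control, the exact 95% binomial intervals of replicates 1 and 2 did not overlap for either hairpin. They were 65.7% to 71.2% and 58.2% to 62.0% for miR-132, and 42.7% to 55.4% and 28.9% to 38.0% for miR-212. These intervals cover counting error only, so control pools differed from each other by more than counting error, with replicate 1 high in 3p and replicate 2 low for both hairpins.

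The arm ratios were tested with limma over all 156 miRNA hairpins that had both arms above the filter, of which 0% passed after adjustment and 18 had an unadjusted p under 0.05. The log2 difference of the 3p to 5p ratio was -0.08 for miR-132 (95% interval -0.57 to 0.41) and -0.07 for miR-212 (95% interval -0.66 to 0.52), with an adjusted p of 0.952 for each. The median size of the difference over the 156 hairpins was 0.23. Without control replicate 1 the 2 differences were 0.070 and 0.16.

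**Figure D4:**
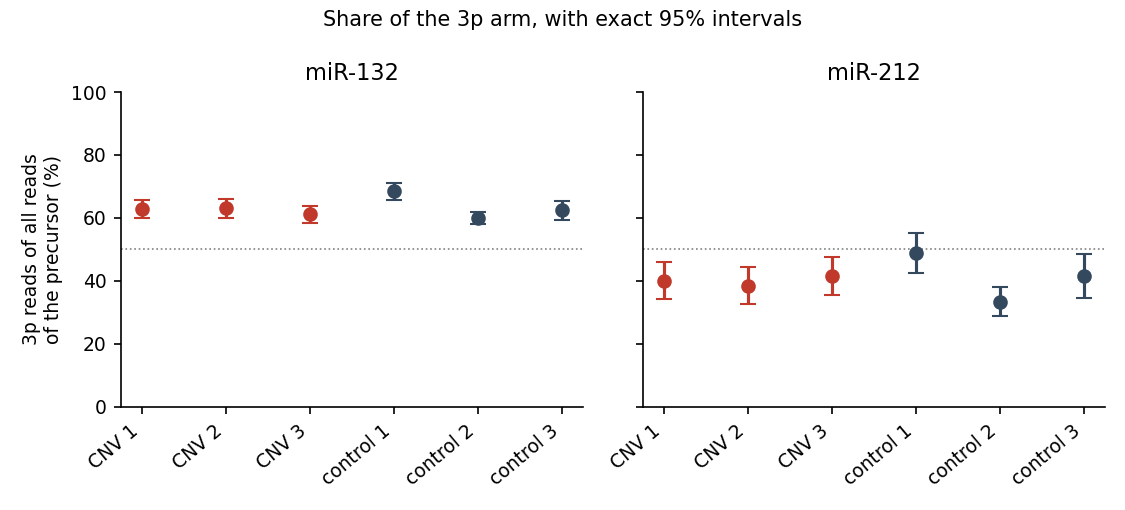
Share of the 3p arm in the reads of each hairpin (vertical axis, percent) by library, with exact 95% binomial intervals and a dotted line at 50%. In miR-132 all libraries lie between 60.1% and 68.5% and in miR-212 between 33.3% and 49.0%, with control replicate 1 highest in both.

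Over the 6 libraries the members did not share a single profile, and how like they were was described by Pearson's r of log2 CPM against the 996 other tested small RNAs. The libraries fall in 2 groups and share their scaling, so these values are descriptions. The member most like miR-132-3p was its seed partner miR-212-3p (r = 0.721, place 25). Both were lowest in control replicate 2, at 116 and 10.4 CPM, and the part of that library in this r was not tested. For miR-132-3p, the other arm of its hairpin, miR-132-5p, was at r = 0.251 (place 258), and miR-212-5p at r = 0.269 (place 239). For miR-212-3p, its seed partner miR-132-3p (r = 0.721, place 92) and the arm of its own hairpin, miR-212-5p (r = 0.670, place 122), were at similar values, and miR-132-5p was at r = -0.141. The 5p arms, miR-132-5p and miR-212-5p, were at r = 0.298. Most like miR-132-3p were miR-196b-5p (r = 0.942), tRF-Leu-AAG-013 (r = 0.929) and miR-877-5p (r = 0.929), each under 5 CPM on average. For miR-132-5p they were miR-27a-5p (r = 0.943) and miR-409-3p (r = 0.925), and for miR-212-3p tRF-Gly-CCC-041 (r = 0.983) and miR-744-5p (r = 0.974). The profile of miR-212-5p was most like those of miR-455-3p (r = 0.996) and miR-10a-5p (r = 0.993). miR-10a-5p, encoded in the Hoxb cluster, passed the test in CNV, at 696 CPM in CNV and 245 CPM in control (log2 1.51, adjusted p 0.0452 in edgeR). For miR-455-3p, which is abundant in cartilage, the means were 318 CPM in CNV and 213 CPM in control (log2 0.58, adjusted p 0.177).

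The cluster was then set beside other miRNAs linked to vessel growth. Of 20 such miRNAs tested, none passed edgeR's test, DESeq2 or limma-voom, and 2 had an unadjusted p under 0.05 in edgeR. Their log2 fold changes were positive for 10 and negative for 10, with a median of -0.01 (-0.16 under scaling by total counts alone). The smallest p values were those of miR-210-3p, induced by hypoxia, at 339 ± 87.5 CPM in CNV and 511 ± 72.4 CPM in control (log2 -0.59, adjusted p 0.224 in edgeR), and of miR-221-3p, which acts on endothelial growth, at 634 ± 124 CPM in CNV and 453 ± 32.1 CPM in control (log2 0.48, adjusted p 0.227). Next was miR-18a-5p of the miR-17-92 cluster (log2 0.62, adjusted p 0.280). The endothelial miR-126a-3p and miR-126a-5p had log2 values of -0.08 and -0.28, and neither had an unadjusted p under 0.05.

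Because miR-132 and miR-212 are also neuronal, miRNAs of neurons were compared as well. Other miRNAs induced by neuronal activity, miR-134-5p, miR-329-3p and miR-381-3p, had log2 values of 0.06, 0.49 and 0.13 (median 0.13, and -0.015 under scaling by total counts alone), and none passed edgeR, DESeq2 or limma-voom, with 1 at an unadjusted p under 0.05 in edgeR. That was miR-329-3p, at 74.2 ± 6.95 CPM in CNV and 53.0 ± 2.24 CPM in control (SD, n = 3 each). Of 12 general neuron miRNAs 11 were tested. None passed edgeR's test or limma-voom, 9 had an unadjusted p under 0.05 in edgeR, all lower, and DESeq2 called 2 lower. In edgeR without a filter on low counts 8 of the 12 were called lower, and with a replicate block 4 of the 11. All 11 log2 values were negative, with a median of -0.83, among them miR-138-5p (-0.97), miR-9-3p (-0.53) and miR-137-3p (-1.21). Their summed level was 8709 to 13960 CPM in CNV and 15780 to 22491 CPM in control. Under TMM the members had log2 values of 0.04 (SE 0.15) for miR-132-3p and 0.12 (SE 0.18) for miR-132-5p. Those of miR-212-3p and miR-212-5p were 0.38 (SE 0.28) and 0.50 (SE 0.19). The miR-132 values were smaller than their SE and turned negative under some alternatives. The members and the neuron miRNAs were not tested against each other.

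Markers of other cells in the tissue were read from the same fit. The 4 RPE miRNAs, arms of miR-204 and miR-211, were present in every library, with a summed level of 4573 to 6546 CPM in CNV and 6841 to 7042 CPM in control and a median log2 value of -0.44, among them miR-211-3p (-0.91), miR-211-5p (-0.39) and miR-204-3p (-0.50). None passed edgeR, with 2 at an unadjusted p under 0.05, and DESeq2 called 1 lower. All 5 photoreceptor miRNAs, products of the hairpins miR-182, miR-183 and miR-96, were present as well, although the neural retina is not part of the labelled tissue. Their summed level was 24756 to 49517 CPM in CNV and 49385 to 75849 CPM in control, which overlapped, with a median log2 value of -0.92, among them miR-96-5p (-0.93), miR-183-5p (-0.79) and miR-182-5p (-0.92). None passed edgeR, 4 had an unadjusted p under 0.05, and DESeq2 called 1 lower. Without a filter edgeR called 4 of the 5 lower, and with a replicate block 3. Of 7 leukocyte and inflammation miRNAs, miR-21a-5p passed edgeR's test (log2 1.82, adjusted p 0.0183), and miR-146b-5p (log2 1.14) and miR-142a-3p (log2 0.84) did not. DESeq2 called 5 of the 7 higher and limma-voom 1, and edgeR called 4 without a filter or with a replicate block. No small RNA was called in edgeR without CNV replicate 1 or 2 or control replicate 2 or 3. The 7 log2 values were all positive, with a median of 0.84, and the summed level was 42358 to 55810 CPM in CNV and 12438 to 20789 CPM in control. Most of that sum was miR-21a-5p, with a mean of 44686 CPM in CNV and 12615 CPM in control. No marker was at 0 in any library. The part of these cell types in the levels of miR-132 and miR-212 was not tested, and in bulk tissue fewer cells of a type and less RNA per cell cannot be told apart.

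**Figure D5:**
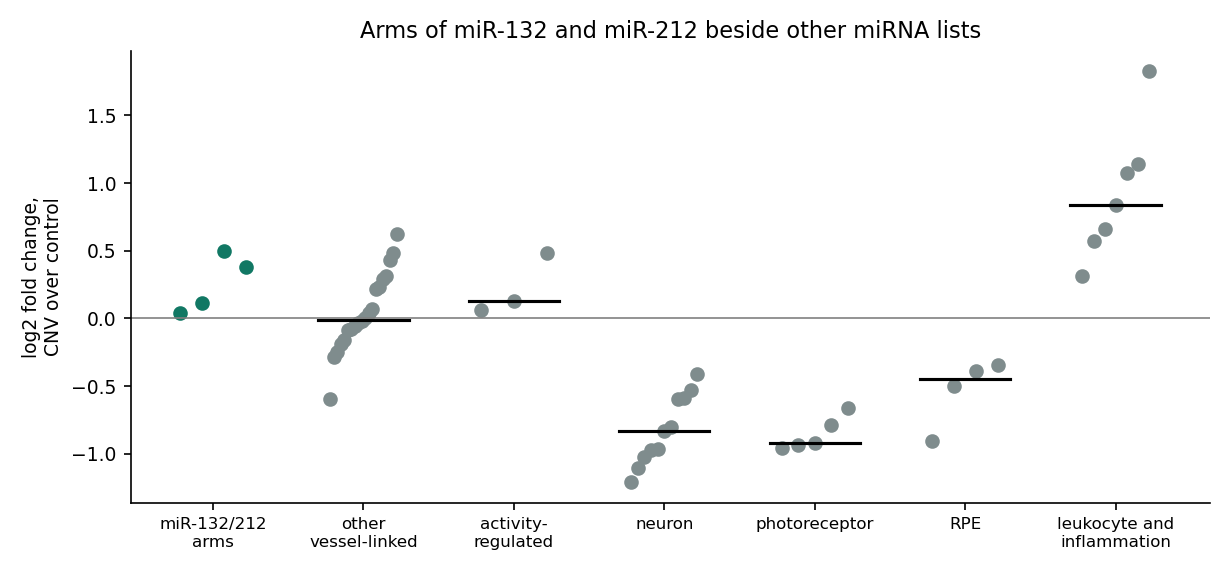
Log2 fold change, CNV over control (vertical axis), of each tested miRNA (points) in 7 groups, with the median of each list as a bar. The 4 cluster arms lie between 0.04 and 0.50, beside medians of -0.01 for the other vessel-linked miRNAs, -0.83 for neuron miRNAs and 0.84 for leukocyte and inflammation miRNAs.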

How the data were processed

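Small RNA libraries (inserts of 14 to 40 nt, NextSeq 500) were made from pools of 4 eyes, per the labels' protocols. The authors' deposited tables give a raw read count per mature miRNA and tRNA-derived small RNA, and these counts were the values used. The submitters' processing notes name Bowtie. Its settings, the build and the handling of multiply matching reads are not stated in the labels. The deposited normalized column was not used.

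Counts of all 2334 small RNAs were analysed together in R 4.3.3. filterByExpr of edgeR 4.0.16 (minimum count 10, minimum total 15) kept 997. CNV was tested against control with TMM factors and the quasi-likelihood test of edgeR, adjusted by Benjamini-Hochberg over all 997. Standard errors and 95% intervals come from that fit. Arm ratios, log2 of counts plus 0.5, were tested with limma 3.58.1, and ratios of member pairs with exact permutation tests. Log2 levels per library used a prior count of 2. Alternatives were DESeq2 1.42.0, limma-voom, other scalings and filters, miRNAs alone, a replicate block and leaving out each library. Sequences are RefSeq's, build GRCm38.p6.

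The members, lists and tests were chosen with earlier results of these data known. The miRNAs named are the members, the 3 of each list with the smallest p and any called, and those most like each member: 3 for miR-132-3p and 2 for each other. The DESeq2 calls in the lists are given as counts.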

Additional observations from a re-analysis of the deposited data

How the results depend on the processing

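No member was called under any of the alternatives run, with 3 of the 4 tested at a minimum mean of 20 CPM, where miR-212-3p was not kept. The log2 value of miR-212-5p was positive in all 14 alternatives (0.34 to 0.57, adjusted p 0.151 to 0.663). That of miR-212-3p was positive in its 13 (0.015 to 0.61). The sign of miR-132-3p turned under scaling by total counts alone (-0.10), without a filter on low counts (-0.048), and without CNV replicate 3 (-0.078) or control replicate 2 (-0.13), in a range of -0.13 to 0.068 on leaving out libraries. That of miR-132-5p turned with total counts (-0.019) and without CNV replicate 3, in a range of -0.035 to 0.17. Without control replicate 1 the arm ratios turned to 0.070 for miR-132 and 0.16 for miR-212, with ranges of -0.19 to 0.070 and -0.31 to 0.16. The ratio of miR-132-5p to miR-212-3p ranged from -0.64 to 0.034, turning without control replicate 2. The causes were not tested.

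The count of small RNAs called, 3 in edgeR, was 38 with DESeq2, 88 without a filter, 0 at a minimum mean of 20 CPM, 6 with miRNAs alone, and 0 to 24 on leaving out a library (0 without CNV replicate 1 or 2 or control replicate 2 or 3, and 24 without CNV replicate 3). With the replicate number as a block it was 36, and 5 arm ratios were called instead of 0, none of them of miR-132 or miR-212. The numbers were not taken to pair the samples. Deviations of same-numbered libraries correlated at 0.287, 0.0302 and 0.172 for replicates 1 to 3. Control replicates 1 and 3 correlated best with the CNV replicate of the same number, and control replicate 2 with CNV replicate 3 (0.152). These values do not settle whether the samples were paired. Under the block miR-212-5p was at 0.50 (adjusted p 0.223) and no call on a member changed. Calls in edgeR within the lists changed too. Without a filter 8 of 12 neuron and 4 of 5 photoreceptor miRNAs, 1 RPE and 1 vessel-linked miRNA were lower and 4 of 7 leukocyte and inflammation miRNAs higher. With the block 4 neuron, 3 photoreceptor and 1 RPE miRNA were lower and 4 leukocyte and inflammation miRNAs higher. Without CNV replicate 3, 2 photoreceptor miRNAs were lower and 3 leukocyte and inflammation miRNAs higher. The fewest counts of a member were 87 to 145 per library, for miR-212-3p.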
